A study of Homo sapiens with 4 samples.

Results

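The genes described here are members of the adhesion, matrix and guidance families, picked by gene symbol with earlier results of these data known. Listed symbols were taken that begin with COL, LAMA, LAMB, LAMC, ITGA, ITGB, CDH, PCDH, CLDN, SEMA, PLXN, EPHA, EPHB, EFNA, EFNB, ADAM or ADAMTS. A digit, or a subfamily letter and a digit, had to follow, and ITGA2B and ADAM22 were left out. This gave 38 of the 3200 rows of the deposited table, of which 2288 carry an Ensembl identifier. RNA of K562, an established human line of chronic myeloid leukaemia cells that carries the BCR-ABL fusion, was sequenced in 4 libraries, 1 per group. The groups were imatinib-resistant K562 cells (K562/IMR), K562 cells given R-Exo for 48 h, K562 cells given S-Exo for 48 h, and parental K562 cells with no such treatment (NC). Imatinib blocks the kinase activity of BCR-ABL, and R-Exo and S-Exo were taken, from the series title and design, to be exosomes (vesicles shed by cells) made by resistant and by sensitive cells. The vesicle dose, the way the resistant line was made and whether it is 1 clone were not stated in the sources used here. With 1 library per group, no difference below has a replicate check, and no p-value or error is given. The table's name says that it holds differentially expressed genes, so counts and shares describe genes that the authors had already selected, not the transcriptome.

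Collagens and laminins are the chains of extracellular fibrils and basement membranes, and integrins are the heterodimeric receptors that bind them. Cadherins, protocadherins and claudins join cells to each other. Semaphorins are secreted or membrane-bound guidance ligands that signal through plexins, the secreted class mostly with neuropilins as co-receptors. ADAM and ADAMTS proteins are metalloproteases that shed surface proteins or cut matrix. In bone marrow, contact of leukaemia cells with matrix and stroma is known to involve integrins and other adhesion receptors. K562 cells grow in suspension and are erythroid and megakaryocytic in character.

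The R-Exo library stood close to the resistant one over the whole table. Pearson's r of log2 (FPKM + 1) across the 3200 rows was 0.974 between R-Exo and resistant and 0.736 between R-Exo and parental, and 0.977 between S-Exo and parental. FPKM values are fragment counts divided by gene length and by library size, so they can be compared between genes. ABCB1, the drug efflux pump gene, reached 778 FPKM in resistant, against 0.222 in parental, and 677 FPKM in R-Exo, against 0.0985 in S-Exo. Whether the R-Exo library holds RNA of resistant-line cells was not tested, so the R-Exo values below are values of the library labelled R-Exo. In bulk RNA, fewer cells that express a gene and less RNA per cell cannot be told apart. Of the fibroblast and stroma markers, 2 of 9 were listed, COL1A1 and COL1A2, with a summed level of 0.970 to 1.11 FPKM in R-Exo and resistant and of 0.192 to 0.246 FPKM in S-Exo and parental. CD3D was the 1 listed lymphocyte marker of 5, at 8.85 FPKM in resistant, 7.27 in R-Exo, 0.677 in S-Exo and 0.410 in parental, and 0 of the 15 endothelial, epithelial and macrophage markers were listed. The part of another cell type in the values below was not tested.

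The families were listed to different degrees. Of the protein-coding genes of GENCODE release 29 whose names meet the same rule, 38 of 292 (13.0%) were rows of the table, against 2285 of 19951 (11.5%) of all protein-coding genes. The semaphorins had 7 of 20 genes listed, the plexins 4 of 9, the collagens 11 of 45 and the laminin chains 3 of 12. The cadherins had 1 of 28, the protocadherins 3 of 64, the claudins 2 of 26, the ADAM genes 1 of 19 and the ADAMTS genes 2 of 24. These sizes are counts of names, since the rule also takes names that begin with CDHR, CLDND or ADAMTSL and a digit. For the protocadherins, the longer prefixes PCDHGA, PCDHGB and PCDHGC were allowed as well. ITGA2B and ADAM22, which the rule leaves out, are in none of these counts, though ADAM22 was a row. None of the 22 ephrin and ephrin receptor genes was a row, so these families have no value here. The integrin prefixes gave 4 rows, of which ITGA7 and ITGB4 encode integrin subunits. ITGBL1 encodes a secreted protein related to integrin beta subunits, and ITGB1BP2 encodes melusin, a muscle protein that binds an integrin tail.

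The members were low in level. The median over the 38 members was 0.548 FPKM in resistant, 0.501 in R-Exo, 0.482 in S-Exo and 0.527 in parental, against 1.21, 1.10, 1.01 and 0.946 FPKM over all rows in the same order. Of them, 19 of 38 (50.0%) stayed under 1 FPKM in all 4 libraries, against 881 of the 3200 rows. Only 4 members (10.5%) reached 5 FPKM in any library, CLDN12, CDH12, ADAM8 and SEMA7A, and 1 (2.63%), CLDN12, reached 10. Of all rows, 27.5% reached 5 FPKM and 15.7% reached 10. GENCODE release 29 holds the 38 identifiers under the same symbols, on 18 chromosomes. Their longest transcripts had a median of 6000 bases, against 3519 over the 2288 rows with an identifier.

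**Figure D1:**
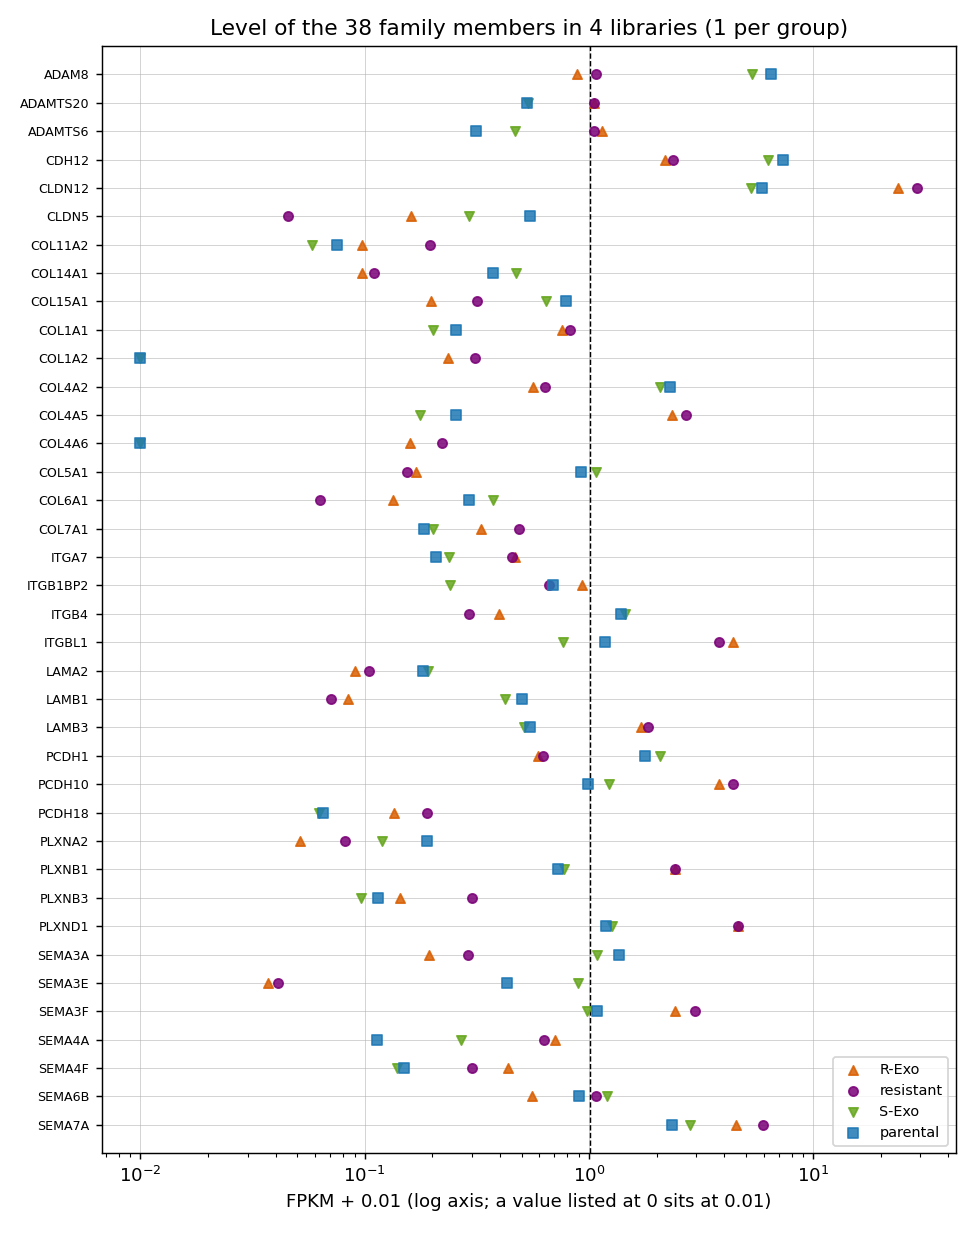
FPKM of each of the 38 members in each of the 4 libraries, on a log axis after 0.01 was added. The dashed line marks 1 FPKM. Points of resistant and R-Exo lie together for most members, as do those of S-Exo and parental, and CLDN12 in resistant (28.9 FPKM) is the highest point.

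Differences between libraries were taken by subtracting log2 (FPKM + 1) of the second library from that of the first, among members that reached 1 FPKM in either library, and an absolute difference of at least 1 was counted. This scale understates differences of genes with low values, so plain ratios are given beside it. In resistant against parental, 18 members were compared. Of these, 6 were counted as higher (CLDN12, COL4A5, PCDH10, PLXND1, ITGBL1 and SEMA7A), where 28.0% of all 2151 compared rows were, and 3 as lower (ADAM8, CDH12 and COL4A2), where 18.1% of all rows were. These shares of members, 33.3% and 16.7%, lie near those of the table. In R-Exo against S-Exo, 19 were compared, with 5 higher (CLDN12, ITGBL1, COL4A5, PLXND1 and PCDH10), against 23.2% of all 2154 rows, and 2 lower (ADAM8 and CDH12), against 21.2% of all rows. In shares of the members compared, that was 26.3% higher and 10.5% lower. The median difference of the compared members was 0.76 in resistant against parental and 0.54 in R-Exo against S-Exo, and that of all compared rows was 0.42 and 0.21. With the medians of all rows set to 0, 3 members were higher and 6 lower in resistant against parental, and 4 were higher and 7 lower in R-Exo against S-Exo, while 12.8% and 15.4% of all rows were then higher and 35.1% and 31.5% lower.

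**Figure D2:**
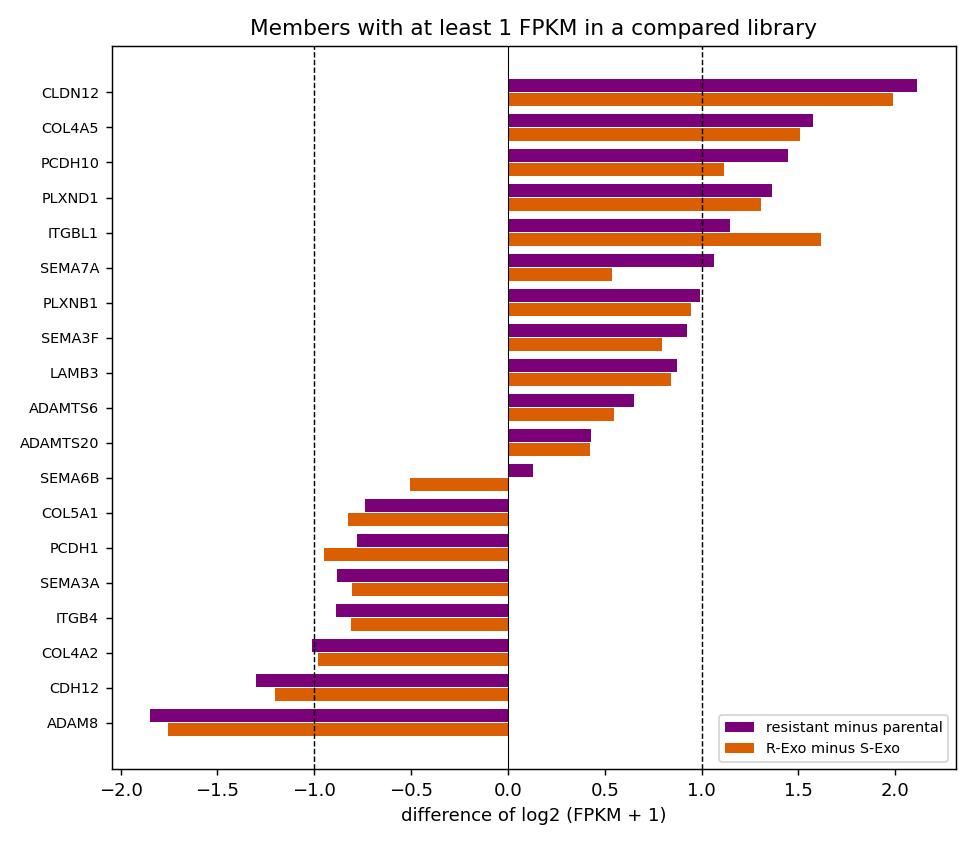
Difference of log2 (FPKM + 1) for resistant minus parental and for R-Exo minus S-Exo in the 19 members with at least 1 FPKM in a compared library. Dashed lines mark a difference of 1 in size, and COL5A1 had at least 1 FPKM only in the second comparison. CLDN12 has the longest bars upward and ADAM8 the longest downward, and SEMA6B alone has bars on opposite sides.

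As deposited, the listed basement membrane collagens of type IV split by chain. COL4A5 had 2.70 FPKM in resistant and 0.245 in parental, and 2.32 in R-Exo against 0.166 in S-Exo. It was the collagen with the largest ratio among those listed above 0 in all 4 libraries, 11.1-fold higher in resistant than in parental and 14.0-fold higher in R-Exo than in S-Exo (log2 differences of 1.57 and 1.51). COL4A6, whose chain assembles with that of COL4A5, had 0.212 FPKM in resistant and was listed at 0 in parental, and had 0.149 in R-Exo and was listed at 0 in S-Exo. With the medians of all rows set to 0, COL4A6 changed sign in both comparisons and lay on the side of COL4A2. COL4A2, which encodes a chain of the basement membrane network found in most tissues, had 0.626 FPKM in resistant and 2.28 in parental, and 0.552 in R-Exo against 2.07 in S-Exo. It was 3.64-fold and 3.74-fold lower, with log2 differences of -1.01 and -0.98, on either side of the limit. COL4A1, the usual partner of COL4A2, was not among the rows.

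COL4A5 and COL4A6 lie head to head on chromosome X, on opposite strands, with 346 bases between their GENCODE gene models. Their promoter sequences are shown because both genes were higher in the same libraries as deposited (COL4A6 not with the medians of all rows set to 0), and that of COL4A2 because it was lower there. The sequences are the 250 bases before a start in RefSeq (GRCh38.p14), 5′ to 3′ on the strand of the gene. For COL4A5 and COL4A2 the first listed window was taken. For COL4A6 the window that overlaps the COL4A5 window most was picked, so the shared length depends on that choice. The sources used here do not name the authors' build. COL4A5 lies at chrX:108439588-108439837 on the plus strand, COL4A6 at chrX:108439459-108439708 on the minus strand and COL4A2 at chr13:110307034-110307283 on the plus strand. Capitals mark the 121 bases that the COL4A5 and COL4A6 windows share, read from opposite strands, and in COL4A2 they mark the motif GGGCGG.
COL4A5: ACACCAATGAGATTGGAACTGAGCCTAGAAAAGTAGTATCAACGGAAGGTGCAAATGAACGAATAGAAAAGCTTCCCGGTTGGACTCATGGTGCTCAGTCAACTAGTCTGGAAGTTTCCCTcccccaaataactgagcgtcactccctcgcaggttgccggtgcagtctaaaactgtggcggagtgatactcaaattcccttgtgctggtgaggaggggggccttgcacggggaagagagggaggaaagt
COL4A6: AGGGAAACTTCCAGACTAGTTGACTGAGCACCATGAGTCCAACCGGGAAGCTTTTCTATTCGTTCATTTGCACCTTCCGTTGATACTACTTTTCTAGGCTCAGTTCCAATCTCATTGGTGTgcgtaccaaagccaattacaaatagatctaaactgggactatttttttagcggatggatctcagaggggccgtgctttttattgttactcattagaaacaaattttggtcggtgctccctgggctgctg
COL4A2: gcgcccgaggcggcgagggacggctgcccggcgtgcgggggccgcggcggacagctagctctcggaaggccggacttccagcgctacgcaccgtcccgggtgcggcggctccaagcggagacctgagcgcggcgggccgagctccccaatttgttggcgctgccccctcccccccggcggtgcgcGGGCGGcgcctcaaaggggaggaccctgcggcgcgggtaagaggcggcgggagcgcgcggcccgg
The GC content was 51.2% for COL4A5, 44.0% for COL4A6 and 78.8% for COL4A2, against a median of 58.0% over the promoters of 27305 genes. The GC box GGGCGG was sought on both strands and was found in the COL4A2 window and not in the COL4A5 window or the COL4A6 window shown. It was found in 21 of the 28 members with a RefSeq window (75.0%), against 46.2% of all genes, and in 13 of 17 members higher in both comparisons and 8 of 10 lower in both. The letters CCAAT were in the stretch that COL4A5 and COL4A6 share and also in the COL4A2 window, and in 16 of the 28 members (57.1%), against 37.0% of all genes. They were in 12 of the 17 members that were higher in both comparisons and in 3 of the 10 that were lower. TATAAA was in 3 of the 28 and the GATA motif AGATAA in 1, against 13.0% and 11.1% of all genes. A match in any RefSeq window of a gene was counted, so genes with more windows had more room for one. The 28 members are protein-coding, while the 27305 genes were not limited to such genes, so the shares are not like for like. These matches are descriptions of the letters, and no test was made on them.

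The fibrillar collagens also lay on both sides. COL1A1, which encodes the main chain of type I collagen, had 0.813 FPKM in resistant and 0.246 in parental, and 0.745 in R-Exo against 0.192 in S-Exo. COL1A2, which encodes its partner chain, had 0.300 FPKM in resistant and was listed at 0 in parental, and had 0.224 in R-Exo and was listed at 0 in S-Exo. COL5A1, which encodes a chain of the type V collagen that lies within type I fibrils, went the other way. It had 0.145 FPKM in resistant and 0.908 in parental, and 0.160 in R-Exo against 1.06 in S-Exo, 6.27-fold and 6.62-fold lower. COL11A2, a cartilage collagen gene, stayed between 0.0479 and 0.185 FPKM with resistant above parental and R-Exo above S-Exo as deposited. COL7A1, which encodes the collagen of anchoring fibrils, had 0.479 FPKM in resistant and 0.173 in parental, and 0.320 in R-Exo against 0.192 in S-Exo. Of the collagens that associate with fibrils or form beaded filaments, COL6A1, COL14A1 and COL15A1 were lower in both comparisons. COL14A1 had 0.1002 FPKM in resistant and 0.363 in parental, and 0.0869 in R-Exo against 0.464 in S-Exo. COL15A1 had 0.306 FPKM in resistant and 0.777 in parental, and 0.187 in R-Exo against 0.636 in S-Exo. COL6A1 had 0.0532 FPKM in resistant and 0.281 in parental, and 0.124 in R-Exo against 0.365 in S-Exo. In sum, 6 of the 11 listed collagens were higher in both comparisons and 5 lower in both, which became 2 and 8 with the medians of all rows set to 0 (COL1A2, COL4A6, COL7A1 and COL11A2 changed sign). Of all rows, 48.8% were higher and 40.4% lower in both as deposited, and 35.8% and 49.9% with the medians set to 0. Their summed level was 5.92 FPKM in resistant and 5.34 in parental, and 4.96 in R-Exo against 5.19 in S-Exo.

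Among laminins and their receptors, LAMB3 and ITGB4 lay on opposite sides. LAMB3 encodes the beta chain of a laminin of epithelial basement membranes, and ITGB4 a subunit of the integrin that binds that laminin in hemidesmosomes. LAMB3 had 1.82 FPKM in resistant and 0.536 in parental, and 1.69 in R-Exo against 0.5002 in S-Exo. ITGB4 had 0.281 FPKM in resistant and 1.37 in parental, and 0.387 in R-Exo against 1.43 in S-Exo. LAMB3 was thus 3.39-fold and 3.37-fold higher and ITGB4 4.89-fold and 3.70-fold lower, with log2 differences of 0.87 and 0.84 for LAMB3 and of -0.89 and -0.81 for ITGB4, all short of the limit. LAMB1, which encodes a widespread laminin chain, had 0.0610 FPKM in resistant and 0.494 in parental, and 0.0739 in R-Exo against 0.413 in S-Exo. LAMA2, which encodes the laminin alpha chain of muscle, had 0.0939 FPKM in resistant and 0.172 in parental, and 0.0809 in R-Exo against 0.182 in S-Exo. ITGA7, which encodes a laminin-binding integrin subunit of muscle, had 0.443 FPKM in resistant and 0.198 in parental, and 0.457 in R-Exo against 0.228 in S-Exo. So LAMB3 and ITGA7 were higher, and LAMB1, LAMA2 and ITGB4 lower, in both comparisons, except that ITGA7 turned in resistant against parental with the median of all rows set to 0.

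ITGBL1 had 3.80 FPKM in resistant and 1.17 in parental, and 4.37 in R-Exo against 0.751 in S-Exo. It was 3.25-fold and 5.81-fold higher (log2 differences of 1.15 and 1.62), and R-Exo, not resistant, was its highest library. Of its exon bases, 70.5% are also exon bases of FGF14 on the opposite strand in GENCODE release 29. FGF14 was listed at 0.769 FPKM in resistant and 0.0191 in parental, and at 0.721 in R-Exo against 0.254 in S-Exo. The sources used here do not say whether strand was used in counting, so reads of ITGBL1 and FGF14 may not be separable. ITGB1BP2 had 0.654 FPKM in resistant and 0.680 in parental, and 0.916 in R-Exo against 0.229 in S-Exo. Resistant and parental thus lay close together while R-Exo was 4.005-fold above S-Exo, where the S-Exo value was also 2.97-fold below parental.

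Between cells, the claudin CLDN12 held the highest level of all members. CLDN12, which encodes a tight junction protein, had 28.9 FPKM in resistant and 5.90 in parental, and 23.8 in R-Exo against 5.27 in S-Exo. It was 4.89-fold and 4.53-fold higher (log2 differences of 2.11 and 1.99), rank 105 from the highest of the 2151 compared rows in the first comparison and 110 of 2154 in the second. On the same strand its exons overlap those of AC006153.1, GTPBP10 and CDK14, by 5.50%, 5.15% and 2.98% of its exon bases, and AC006153.1 was not a row. GTPBP10 had 34.4 FPKM in resistant and 6.95 in parental, and 31.4 in R-Exo against 8.28 in S-Exo. CDK14 had 0.606 FPKM in resistant and 0.478 in R-Exo and was listed at 0 in parental and S-Exo, so GTPBP10 and CDK14 were higher in the same libraries as CLDN12. CLDN5, which encodes the main tight junction claudin of endothelium, had 0.0355 FPKM in resistant and 0.537 in parental, and 0.150 in R-Exo against 0.281 in S-Exo. It was 15.1-fold lower in resistant than in parental and 1.87-fold lower in R-Exo than in S-Exo, at levels under 1 FPKM throughout.

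CDH12, which encodes a cadherin known mainly from brain, had the highest parental level of all members. It had 2.36 FPKM in resistant and 7.29 in parental, and 2.17 in R-Exo against 6.29 in S-Exo, 3.09-fold and 2.90-fold lower (log2 differences of -1.30 and -1.20). The protocadherins were divided. PCDH10, which encodes a protocadherin of the delta group, had 4.38 FPKM in resistant and 0.975 in parental, and 3.79 in R-Exo against 1.21 in S-Exo, 4.49-fold and 3.13-fold higher (log2 differences of 1.45 and 1.11). PCDH1, of the same group, had 0.616 FPKM in resistant and 1.77 in parental, and 0.585 in R-Exo against 2.06 in S-Exo, 2.87-fold and 3.52-fold lower (log2 differences of -0.78 and -0.95). PCDH18, the other listed protocadherin, stayed between 0.0523 and 0.179 FPKM, with resistant the highest.

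Of the 4 listed plexins, 3 were higher in both comparisons and PLXNA2 was lower in both. Of all rows, 48.8% were higher in both and 40.4% lower in both. With the medians of all rows set to 0, PLXNB3 was also lower, so 2 plexins were higher and 2 lower. The shares of all rows were then 35.8% and 49.9%. PLXND1 encodes a receptor that binds SEMA3E directly. It had 4.61 FPKM in resistant and 1.17 in parental, and 4.59 in R-Exo against 1.26 in S-Exo, 3.92-fold and 3.65-fold higher (log2 differences of 1.37 and 1.31). PLXNB1, which encodes the receptor of SEMA4D, had 2.41 FPKM in resistant and 0.715 in parental, and 2.40 in R-Exo against 0.766 in S-Exo. It was 3.37-fold and 3.14-fold higher, and its log2 differences of 0.99 and 0.95 lay just under the limit. For these plexins resistant and R-Exo differed by less than 0.01 on the log2 scale (-0.0055 for PLXND1 and -0.0026 for PLXNB1). PLXNB3, the SEMA5A receptor gene, had 0.290 FPKM in resistant and 0.104 in parental, and 0.133 in R-Exo against 0.0864 in S-Exo, and 20.4% of its exon bases are shared with SRPK3. PLXNA2, which encodes a co-receptor for secreted semaphorins, had 0.0714 FPKM in resistant and 0.180 in parental, and 0.0414 in R-Exo against 0.109 in S-Exo. The summed level of the plexins was 7.38 FPKM in resistant and 2.17 in parental, and 7.16 in R-Exo against 2.22 in S-Exo.

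The secreted semaphorins of class 3 differed in direction among themselves. SEMA3E, the ligand of PLXND1, had 0.0311 FPKM in resistant and 0.421 in parental, and 0.0270 in R-Exo against 0.882 in S-Exo. It was 13.5-fold and 32.6-fold lower, while PLXND1 was higher in the same libraries, and all of its values were under 1 FPKM. SEMA3A, a repulsive axon guidance ligand, had 0.279 FPKM in resistant and 1.35 in parental, and 0.183 in R-Exo against 1.07 in S-Exo, 4.86-fold and 5.84-fold lower (log2 differences of -0.88 and -0.81). SEMA3F, a ligand that acts through neuropilin and plexins, had 2.95 FPKM in resistant and 1.08 in parental, and 2.41 in R-Exo against 0.968 in S-Exo, 2.74-fold and 2.49-fold higher (log2 differences of 0.93 and 0.79). SEMA3E and SEMA3A were thus lower and SEMA3F higher in both comparisons.

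Of the 4 membrane-bound semaphorins, SEMA7A, SEMA4A and SEMA4F were higher in both comparisons, SEMA4F only as deposited and after quantile normalization. Of all rows, 48.8% were higher in both as deposited and 35.8% with the medians of all rows set to 0. SEMA7A, which encodes a lipid-anchored semaphorin, had 5.97 FPKM in resistant and 2.32 in parental, and 4.53 in R-Exo against 2.80 in S-Exo, 2.57-fold and 1.62-fold higher (log2 differences of 1.07 and 0.54). It was the 1 member counted as higher in resistant against parental and not in R-Exo against S-Exo. SEMA4A, which encodes a transmembrane semaphorin of immune cells, had 0.618 FPKM in resistant and 0.103 in parental, and 0.698 in R-Exo against 0.260 in S-Exo. SEMA4F, another transmembrane semaphorin gene, had 0.290 FPKM in resistant and 0.139 in parental, and 0.425 in R-Exo against 0.129 in S-Exo. SEMA6B, a transmembrane semaphorin gene, had 1.07 FPKM in resistant and 0.889 in parental, and 0.545 in R-Exo against 1.20 in S-Exo. As deposited, SEMA6B was 1.20-fold higher in resistant than in parental and 2.19-fold lower in R-Exo than in S-Exo, and its R-Exo value was the lowest of the 4.

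Among the proteases, ADAM8 was the member with the largest negative difference. ADAM8, which encodes a metalloprotease known from myeloid cells, had 1.07 FPKM in resistant and 6.44 in parental, and 0.872 in R-Exo against 5.32 in S-Exo. It was 6.03-fold and 6.10-fold lower (log2 differences of -1.85 and -1.76), rank 87 from the lowest of the 2151 compared rows and rank 108 of 2154. The ADAMTS genes, which encode secreted proteases of the matrix, were higher as deposited. ADAMTS6 had 1.04 FPKM in resistant and 0.302 in parental, and 1.13 in R-Exo against 0.460 in S-Exo. ADAMTS20 had 1.05 FPKM in resistant and 0.518 in parental, and 1.05 in R-Exo against 0.523 in S-Exo. Neither reached the limit, with log2 differences between 0.43 and 0.65, and with the median of all rows set to 0 the ADAMTS20 difference in resistant against parental was 0.011.

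The pair of comparisons that share no library, resistant against parental and R-Exo against S-Exo, can be set side by side for every member. Differences of any size had the same sign in both for 36 of 38 members, 21 higher and 15 lower, where 48.8% of all rows were higher in both and 40.4% lower in both. That is 94.7% of the members with the same sign, against 89.2% of the 3200 rows. The exceptions were SEMA6B and ITGB1BP2. With the medians of all rows set to 0, 9 members changed sign in one or both comparisons (COL11A2, COL1A2, COL4A6, COL7A1, ITGA7, PCDH18, PLXNB3, SEMA4F and SEMA6B), none of them above 1.20 FPKM in any library, and 13 members (34.2%) were then higher and 21 (55.3%) lower in both, where 35.8% of all rows were higher and 49.9% lower. After quantile normalization SEMA6B alone changed sign. Past the limit, 5 members were higher in both comparisons (PCDH10, COL4A5, ITGBL1, CLDN12 and PLXND1), 2 were lower in both (CDH12 and ADAM8) and 0 were opposite, among 18 compared in both. That is 38.9% of the members past the limit on the same side, close to the 34.2% of the 1986 rows compared in both (403 higher and 276 lower). Across those 18 members Pearson's r of the differences was 0.977, against 0.935 across those rows. These values describe 4 libraries, and genes are not replicates.

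**Figure D3:**
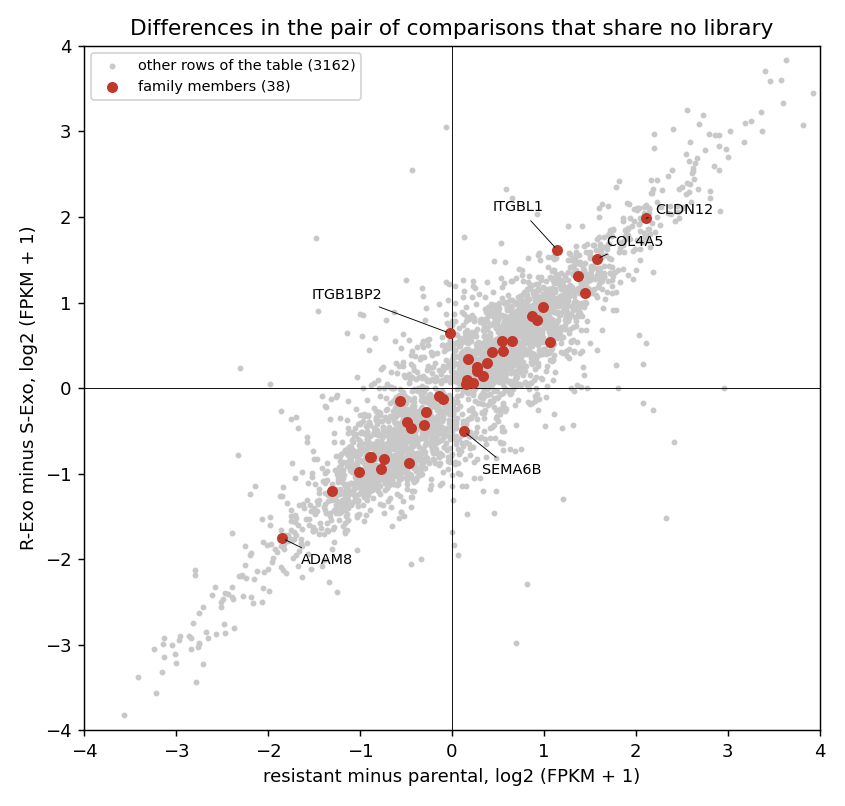
Difference of log2 (FPKM + 1) for resistant minus parental (horizontal) and R-Exo minus S-Exo (vertical), for the 38 members and the other rows of the table. The axes end at 4 in size, which leaves 23 other rows and 0 members outside. Of the members, 36 of 38 lie in the quadrants of equal sign, with SEMA6B and ITGB1BP2 outside them.

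R-Exo against resistant sets the library labelled R-Exo against that of the resistant line. In R-Exo against resistant, 14 members were compared and 0 were counted as higher or lower, where 1.60% of all 1879 rows were higher and 1.22% lower. The differences ran from -0.42 (SEMA6B) to 0.16 (ITGBL1). By plain ratio, 4 members differed 2-fold or more between R-Exo and resistant, each under 1 FPKM. The share of all rows past that ratio was not counted, so this number has no background. CLDN5 and COL6A1 were 4.23-fold and 2.33-fold higher in R-Exo, and COL11A2 and PLXNB3 were 2.11-fold and 2.17-fold lower. In R-Exo against parental, 17 members were compared, with 5 higher, where 23.5% of all 2115 rows were, and 3 lower (ADAM8, CDH12 and COL4A2), where 21.5% were. The higher ones were CLDN12, COL4A5, PLXND1, ITGBL1 and PCDH10.

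In S-Exo against parental, 14 members were compared and 0 were counted as higher or lower, where 1.63% of all 1723 rows were higher and 1.22% lower. The differences ran from -0.31 (ITGBL1) to 0.22 (SEMA6B), with a median of -0.02. By plain ratio, 3 members differed 2-fold or more, again each under 1 FPKM, and the share of all rows was again not counted. SEMA3E was 2.09-fold and SEMA4A 2.51-fold higher in S-Exo, and ITGB1BP2 was 2.97-fold lower.

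Of the members, 5 lie on chromosome 7, which also holds ABCB1, and they were not alike. By GENCODE release 29 (GRCh38), CLDN12 starts 2.67 Mb and COL1A2 6.68 Mb from the start of ABCB1 toward higher coordinates, and both were higher in resistant than in parental, COL1A2 not with the median of all rows set to 0. SEMA3A and SEMA3E start 3.22 Mb and 4.06 Mb away on the other side, and both were lower. LAMB1, at 20.3 Mb, was also lower. Between the starts of ABCB1 and COL1A2 lay 24 rows other than the members, of which 23 were higher in resistant, and between SEMA3A and ABCB1 all 7 were. These are differences of any size. The share of all rows higher in this comparison alone was not counted, and the median difference of all compared rows was 0.42. Copy number was not measured in these files.

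**Figure D4:**
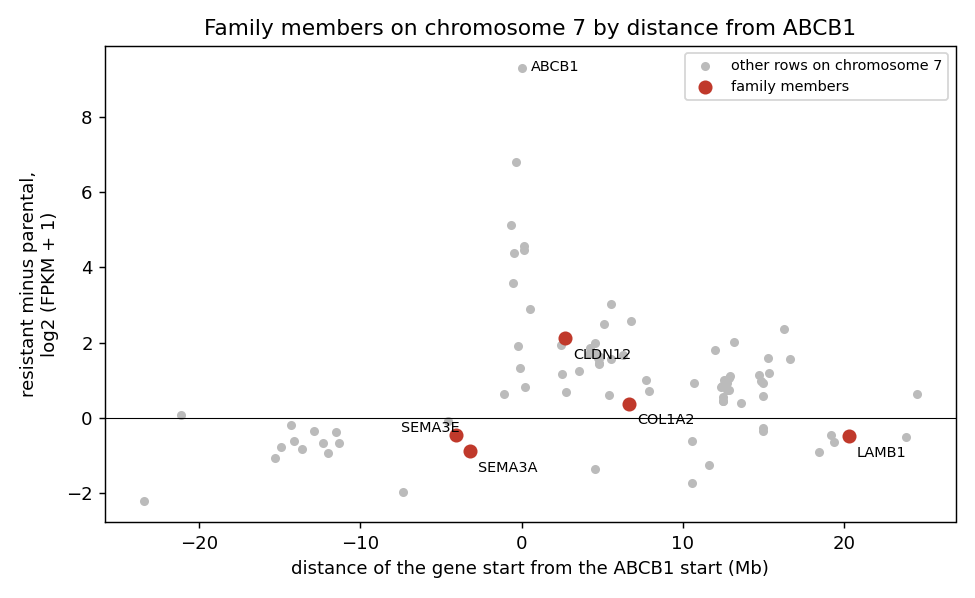
Difference of log2 (FPKM + 1) for resistant minus parental in the 87 rows of chromosome 7 whose start lies within 25 Mb of the ABCB1 start, by distance in Mb. CLDN12 (2.11) and, as deposited but not with the median of all rows set to 0, COL1A2 (0.38) lie above 0, and SEMA3A (-0.88), SEMA3E (-0.46) and LAMB1 (-0.49) below it.

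Partner genes of these families were taken from lists that hold no member. Of 27 matrix enzymes and inhibitors, 5 were listed and 4 compared, with 3 higher and 0 lower in each of the 2 main comparisons. Of all compared rows, 28.0% were higher and 18.1% lower in resistant against parental, and 23.2% and 21.2% in R-Exo against S-Exo. These shares are the background for each partner list, and counts from so few genes were not tested. SERPINH1, a collagen chaperone gene, had 73.4 FPKM in resistant and 33.5 in parental, and 80.9 in R-Exo against 30.5 in S-Exo. FKBP10, which encodes another collagen chaperone, had 22.3 FPKM in resistant and 19.7 in R-Exo and was listed at 0 in parental and S-Exo. The other counted as higher was PLOD2, a collagen lysyl hydroxylase gene. PLOD2 had 3.67 FPKM in resistant and 0.140 in parental, and 4.17 in R-Exo against 0.367 in S-Exo. MMP14, the compared gene not counted, had 1.15 FPKM in resistant and 0.696 in parental, and 1.32 in R-Exo against 0.377 in S-Exo. Of 27 genes for other integrin subunits and focal adhesion proteins, 6 were listed, with 2 compared in resistant against parental and 3 in R-Exo against S-Exo. FERMT2, which encodes the integrin activator kindlin, was the 1 counted as higher in both comparisons, and 0 were lower. FERMT2 had 8.71 FPKM in resistant and 0.337 in parental, and 9.97 in R-Exo against 0.412 in S-Exo. PTK2B, a focal adhesion kinase gene, had 19.1 FPKM in resistant and 9.15 in parental, and 17.6 in R-Exo against 8.55 in S-Exo, with log2 differences of 0.99 and 0.97. Of 24 other surface adhesion genes, 7 were listed and 6 compared, with 3 higher (CD44, ESAM and ICAM2) and 1 lower (SELPLG) in both comparisons. SELPLG, which encodes the selectin ligand of leukocytes, had 1.21 FPKM in resistant and 8.27 in parental, and 0.959 in R-Exo against 10.1 in S-Exo. CD44, a hyaluronan receptor gene, had 7.80 FPKM in resistant and 1.66 in parental, and 6.97 in R-Exo against 1.22 in S-Exo. ESAM, which encodes a junction protein of endothelium and platelets, had 3.22 FPKM in resistant and 0.198 in parental, and 3.08 in R-Exo against 0.351 in S-Exo. ICAM2, an integrin ligand gene, had 64.2 FPKM in resistant and 29.3 in parental, and 66.4 in R-Exo against 22.8 in S-Exo.

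Of 29 other matrix protein genes, 6 were listed and 2 compared. SPARC, which encodes a collagen-binding protein, was counted as higher in both comparisons, with 23.4 FPKM in resistant and 4.90 in parental, and 23.2 in R-Exo against 5.77 in S-Exo. EMILIN2, which encodes an elastic fibre protein, was counted as lower in R-Exo against S-Exo, with 0.294 FPKM in resistant and 1.43 in parental, and 0.230 in R-Exo against 1.57 in S-Exo. Guidance genes outside the members had 5 of 25 listed and 1 compared, DPYSL2, with 0.601 FPKM in resistant and 1.15 in parental, and 0.575 in R-Exo against 1.18 in S-Exo. No neuropilin gene was a row. Of 25 junction genes, 1 was listed, PKP2, a desmosome gene, with 3.83 FPKM in resistant and 1.74 in parental, and 3.03 in R-Exo against 1.39 in S-Exo. Neither the guidance nor the junction list had a gene counted as higher or lower.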

How the data were processed

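The authors deposited 1 table of FPKM values with 1 column per library (4 in all), and the table's name gives the unit. Per the labels' protocols, poly-A RNA was purified from 1 µg of total RNA, and NEBNext Ultra libraries with fragments near 240 bp were sequenced. The submitters' processing notes name SAMtools 0.1.18, TopHat2, GATK and Picard and do not say what each did. The counting tool, strand setting, genome build, annotation and rule of selection were not stated in the sources used here. FPKM keeps no count, so the depth is unknown and no interval was put on a value.

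Columns were matched to samples by the library names in the labels. Differences were computed in Python 3.11.15 with pandas 2.3.3, as log2 (FPKM + 1), with a minimum of 1 FPKM in one or both libraries and a limit of 1 in size. The counting was tested on simulated data, with planted changes well past the limit in rows of higher level than most members. That checked the code and not the counting of genes at low levels. No fold was computed against a value listed at 0. Loci, exon overlaps and family sizes came from GENCODE release 29 by identifier, and promoters from RefSeq by symbol, with 28 of 38 members matched. The text names every member, gives the 4 values of each or their range, and names partner genes by largest difference. The erythroid marker list is not reported here. The members and lists were chosen with earlier results of these data known.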

Additional observations from a re-analysis of the deposited data

How the results depend on the processing

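With 1 library per group, leaving out a replicate was not possible. No paired analysis was possible because each group has 1 library and the result comes from no test. Depth, and so the precision of values under 1 FPKM, is unknown.

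In resistant against parental (6 members higher, 3 lower), a pseudocount of 0.1 gave 10 higher and 6 lower, a minimum of 5 FPKM 2 higher, a median of all rows set to 0 gave 3 higher and 6 lower, quantile normalization 5 lower, and a limit of 1.5 gave 2 higher and 1 lower. In R-Exo against S-Exo (5 higher, 2 lower), the pseudocount of 0.1 gave 9 and 8, the minimum of 5 FPKM 1 higher, the median set to 0 gave 7 lower, quantile normalization 4 lower, and the limit of 1.5 gave 3 and 1. In R-Exo against parental (5 higher, 3 lower), the pseudocount of 0.1 gave 9 and 6, the minimum of 5 FPKM 1 higher, the median set to 0 gave 3 and 6, and the limit of 1.5 gave 1 and 1. The 7 members past the limit in the same direction in both main comparisons became 15 with the pseudocount of 0.1 and 3 with the minimum of 5 FPKM or the limit of 1.5. The counts of 0 in S-Exo against parental and R-Exo against resistant stayed 0 under every alternative run.

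The 0.1 pseudocount added low members such as LAMB3, PLXNB1, ITGB4 and SEMA3A. With the median set to 0, PLXND1 (0.95), ITGBL1 (0.73) and SEMA7A (0.65) were under the limit in resistant against parental, as was PCDH10 (0.90) in R-Exo against S-Exo. Quantile normalization also put ITGBL1 (0.96) and SEMA7A (0.89) under the limit in resistant against parental, leaving 4 higher. CLDN12 and COL4A5 were higher and ADAM8 and CDH12 lower past the limit in both main comparisons under each pseudocount and scaling run. Leaving out ITGB1BP2 and ITGBL1 took 1 gene from each higher count that was above 0. The wording of the name rule was not varied.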
